A study of Caenorhabditis elegans with 16 samples.

Results

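The genes described here make, load, recapture and break down acetylcholine: unc-17, cho-1, cha-1, ace-1 and ace-2. They were chosen by name as 5 of the 18570 genes counted in a single-cell atlas of the nervous system of Caenorhabditis elegans larvae. No cut on measured values was used, but earlier results of these data were known when the choice was made. Their levels were followed over annotated cell types, over libraries, and in the P lineage, the postembryonic blast cells that divide during the first larval stage into ventral cord motor neurons.

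Acetylcholine is the main excitatory transmitter of nematode motor neurons and muscle. Choline acetyltransferase, encoded by cha-1, makes it from choline and acetyl-CoA, the vesicular transporter UNC-17 loads it into synaptic vesicles, and the plasma membrane transporter CHO-1 takes up the choline left after release. Acetylcholinesterases, among them ACE-1 and ACE-2, split the released transmitter, and ace-1 is known mainly from muscle and ace-2 mainly from neurons. unc-17 and cha-1 are known as the cholinergic gene locus, in which the transporter gene lies within the enzyme gene and both transcripts begin with a shared exon.

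In the WBcel235 annotation, which was used here only for gene names and layout, 6439 of the 6441 bases spanned by unc-17 lay inside the span of cha-1 on the same strand. The pair shared 66 exon bases, of 1922 in unc-17 and 2073 in cha-1, and their 3′ ends lay 4328 bases apart. The libraries were made with a 3′ kit per the labels, so reads of the pair come mostly from separate ends, but reads that the authors' counting could have placed on either gene cannot be told apart here. The related esterase genes ace-4 and ace-3 lay 174 bases apart on the same strand.

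All animals were hermaphrodites labelled as wild type, and cells were sorted by fluorescence from reporter strains before capture on 10x Chromium. The 16 libraries formed 13 groups, 3 of them with 2 libraries. Every library was made from a sorted suspension of many larvae, and in 3 experiments suspensions of several strains were combined before the sort, so a cell of those libraries cannot be traced to a strain. Counts are of unique molecular identifiers (UMIs), 1 for each captured transcript.

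Command interneurons were sorted at 12 to 16 h, on the labels' scale of hph, from strain NC3581 with otIs708 (sra-11p::Scarlet and inx-6p18::tagRFP) and rhIs2 (glr-1::GFP). Sensory neurons came at 14 to 16 h from PS9221 with syIs764 (Ptax-4::GFP and Pocr-2::GFP). The 2 pan-neuronal libraries came at 11.5 to 14.5 h from OH10689 with otIs355 (rab-3(prom-1)::2xNLS-tagRFP). At 12 to 15 h, unc-86 neurons were sorted with kyIs262 (unc-86::myr-GFP and odr-1::RFP) and eat-4 neurons from OH9625 with otIs292 (eat-4::mCherry and rol-6(su1006)). The ceh-34 and unc-4 sort, at 14 to 17 h, combined NC3583 with stIs10447 (ceh-34p::HIS-24::mCherry) and evIs111 (F25B3.3::GFP) with NC2957 carrying wdIs90 (unc-4c::GFP) and ufIs26 (unc-4::mCherry). Of its 2 libraries, which share strains and age, 1 held live cells and the other held cells fixed in methanol after sorting.

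At 13.5 to 17 h a pooled sort combined OH16003 with otIs742 (nlp-13::GFP), EG1285 with oxIs12 (unc-47::GFP) and the allele lin-15B&lin-15A(n765), ZM5488 with hpIs202 (ceh-10::GFP), and uIs152 (mec-3::RFP). At 13 to 17 h another combined CZ631 with juIs14 (acr-2::GFP), NC3523 with wdIs90 (unc-4c::GFP and ceh-22::GFP), and PS3504 with syIs54 (ceh-2::GFP) and unc-119(ed4). The P lineage was sorted from UD381, whose phlh-3 promoter drives vab-10abd::venus and nls::tdTomato and which carries odr-1::gfp, in 1 library at 11 to 14 h, 1 at 15.5 to 18.5 h and 2 at 21 to 24 h, an age labelled L1/L2. The 2 flp-7 libraries came at 14 to 17 h from NY2066 with ynIs66 (flp-7p::GFP). None of the reporters is driven by one of the 5 genes.

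The table held 151415 cells and 261228334 UMIs, with 1798814 to 50689801 UMIs a library and a median of 227 to 3949 UMIs a cell. Barcodes that occur in more than 1 library covered 5544 cells (3.66%). The P-lineage library of 11 to 14 h was matched to its label as the only experiment name left, so its match is less certain than the others. Cell types are those of the authors' deposited annotation, and how they were assigned is not given in the sources used here. Levels are CPM, the UMIs of a gene scaled to a fixed total of all UMIs in the cells of a type, with exact Poisson 95% intervals that cover counting error only. For a type with no UMI of a gene, the level given as allowed is that of 3 counts at its depth. Values in CPM compare types within a gene and do not rank one gene against another, since transcripts differ in length and in capture.

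Across the atlas unc-17 had 10646 UMIs, cho-1 6526, cha-1 5475, ace-2 2587 and ace-1 966. Cells annotated as neurons held 97.3% of the unc-17 UMIs, 97.3% of those of cho-1, 97.7% of those of cha-1 and 78.2% of those of ace-2, but 10.5% of those of ace-1. No ace-1 UMI was counted in any of the cells of the P-lineage libraries of 15.5 to 18.5 h and of 21 to 24 h replicate 1, and 5 of the 16 libraries held fewer than 10. In the libraries without ace-1, body wall muscle held 168696 and 73113 UMIs of all genes, which limits what a count of 0 shows. Whether a gene at 0 throughout a library was absent from its cells or from its counting cannot be told apart here.

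A gene was counted as present in a neuron type at 50 CPM or more on at least 10 UMIs, over the 125 neuron types with at least 20 cells. By that rule unc-17 was present in 45 types (36.0%), cha-1 in 43, cho-1 in 38, ace-2 in 9 and ace-1 in 2. Each type was also given the transmitter that adult reporter maps list for it. Those maps used unc-17 and cho-1 themselves, so for these genes the comparison checks the type labels and is no separate finding. All 45 types with unc-17 were among the 56 listed as cholinergic, and none of the 41 glutamatergic, 10 GABAergic, 3 aminergic or 15 unlisted types had it. The median unc-17 level was 309 CPM over the cholinergic types, 4.98 over the glutamatergic, 10.2 over the GABAergic and 26.1 over the aminergic types. Just under the limit lay I4, CEP and RME_LR, at 39.6, 40.7 and 42.9 CPM, and just above it AWB, AS and M1, at 94.1, 146 and 148 CPM.

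The highest unc-17 levels were those of embryonic and postembryonic motor neurons. DB stood first at 867 CPM (interval 666 to 1109.5), followed by DA at 781, VB at 755, DA1 at 747 and DB02 at 684 CPM. Their intervals overlapped, since DB rested on 63 UMIs, DA1 on 17 and DB02 on 26, while VB had 1020. SIA, a neuron of the sublateral cords, had 653 CPM, VA1 631, and the pharyngeal motor neuron M5 had 655 CPM on 9 UMIs, too few to count as present.

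**Figure D1:**
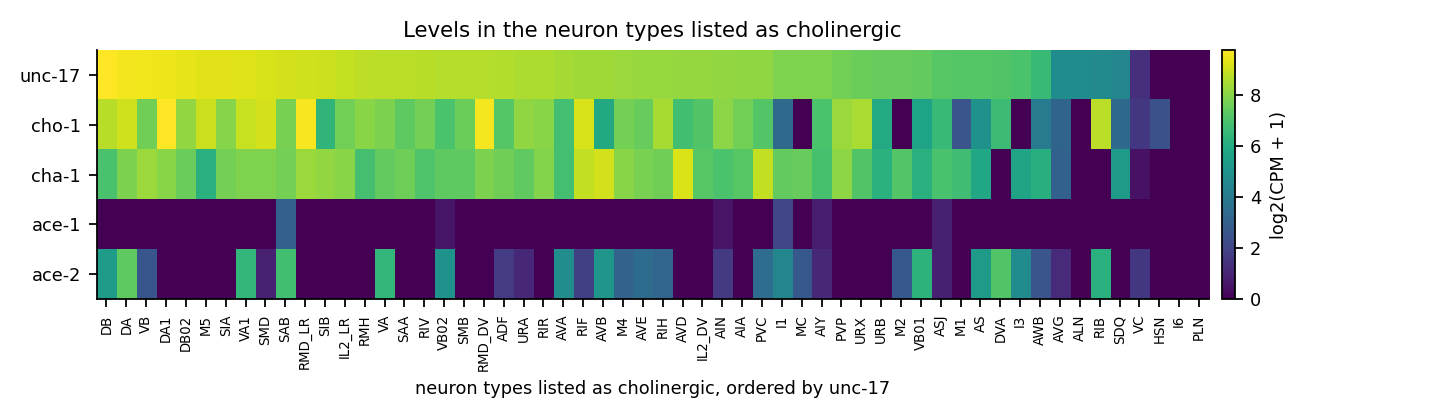
Levels of the 5 genes in the 56 neuron types listed as cholinergic, as log2(CPM + 1) in colour, with types ordered from left to right by unc-17. The row of unc-17 falls from 867 CPM in DB to 0 in HSN, I6 and PLN, the rows of cho-1 and cha-1 are filled over most of the same types, and the row of ace-1 is nearly empty.

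The types that several sorts captured differed in how closely their libraries lay. In VB unc-17 was at 638 CPM in P-lineage cells of 15.5 to 18.5 h, 814 and 726 CPM in those of 21 to 24 h, and 748 CPM in the unc-4, ceh-2 and acr-2 sort. In SMD, a head motor neuron, the 7 libraries ran from 249 through a median of 546 to 685 CPM, with command interneurons lowest. In AIY, an interneuron that receives thermosensory input, the 7 libraries ran from 109 through 314 to 421 CPM, again with the command interneuron sort lowest. The pharyngeal motor neuron MC spread most among these, with 0 CPM in 110 cells of pan-neuronal replicate 1 and 539 CPM in replicate 2. This spread rests on few counts. Replicate 1 was the shallowest library, at a median of 227 UMIs a cell. In replicate 2 unc-17 and cha-1 together had fewer than 20 UMIs in MC.

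Of the 56 listed types, 8 had less than 50 CPM of unc-17. In VC, vulval motor neurons that mature late in larval life, 2207 cells held 4 unc-17 UMIs, or 1.58 CPM, with 5 UMIs of cho-1 and 1 of cha-1. HSN, the egg-laying motor neuron, which also matures late, had no unc-17 UMI in 987 cells, which allows a level of up to 4.44 CPM. I6 and PLN were at 0 as well, but their depth allows up to 155 and 31.9 CPM. AVG, the pioneer neuron of the ventral cord, had 26.2 CPM on 40 UMIs in 2215 cells, and ALN, RIB and SDQ rested on 5 UMIs or fewer.

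In the other direction, RIP, IL1 and LUA had 88.2, 80.8 and 63.3 CPM of unc-17, on 5, 2 and 4 UMIs, and were listed with another transmitter or none.

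The synthesis gene and the 2 transporter genes largely marked the same types. All 3 were present in 34 types, and at least 1 of them in 48. Of the 45 types with unc-17, 91.1% had cha-1, and 95.3% of the 43 types with cha-1 had unc-17. For cho-1 the shares were 82.2% of the unc-17 types and 97.4% of the 38 types with cho-1. Over the 125 types the log2(CPM + 1) levels of unc-17 and cha-1 had a Pearson r of 0.85 and a Spearman rho of 0.81, those of unc-17 and cho-1 0.79 and 0.77, and those of cho-1 and cha-1 0.68 and 0.66. Within the 45 types with unc-17 the coefficients were lower, at 0.47 and 0.46 with cha-1 and 0.61 and 0.62 with cho-1. Types share libraries and depth, so these are descriptions with no test.

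**Figure D2:**
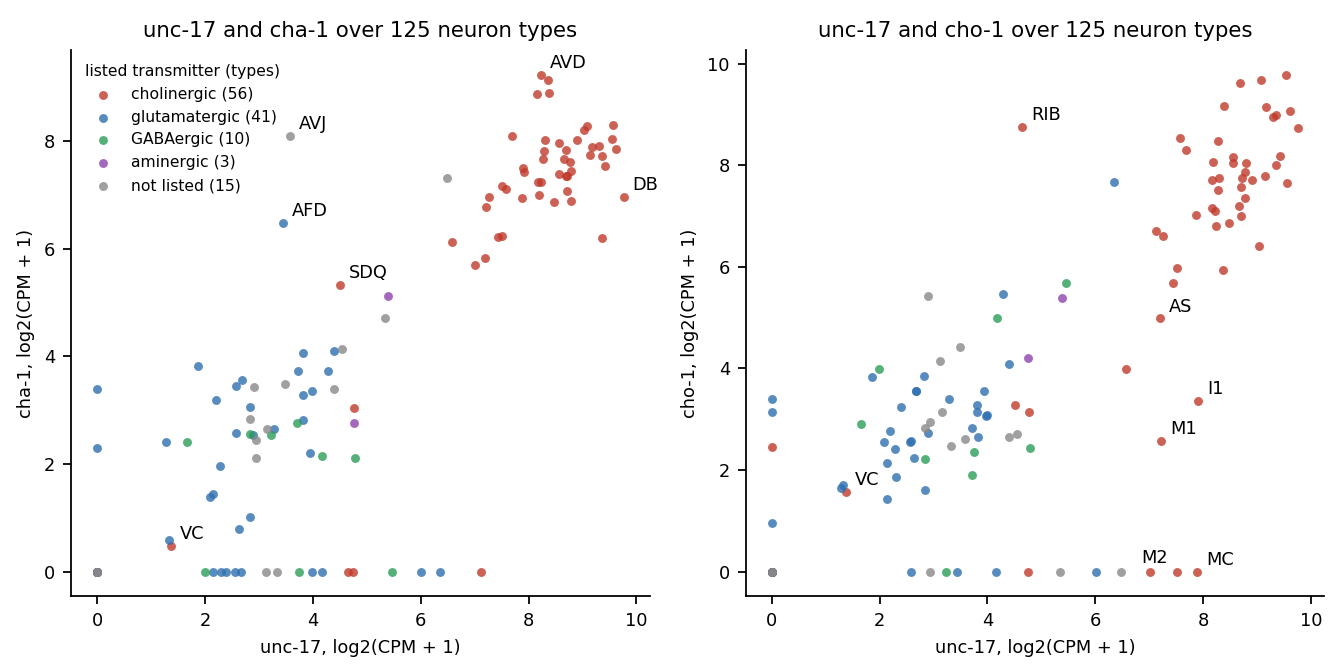
Level of unc-17 against that of cha-1 (left) and of cho-1 (right), each as log2(CPM + 1), with 1 point for each of 125 neuron types coloured by the transmitter listed for it. Most cholinergic types sit at the upper right, AVJ and AFD are high for cha-1 alone, RIB is high for cho-1 alone, and MC and M2 lie on the axis with no cho-1.

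Types with the transporter and the enzyme but without cho-1 numbered 7, and 4 of them are pharyngeal. The pharyngeal motor neurons MC and M2 had 236 and 181 CPM of unc-17 and 181 and 143 CPM of cha-1, with no cho-1 UMI, which allows 16.5 and 16.4 CPM. I1 had 239 CPM of unc-17 and 9.31 CPM of cho-1, and M1 had 148 and 4.93. The pharyngeal motor neuron M4 did have cho-1, at 214 CPM. The remaining 3 were AS, at 30.7 CPM on 104 UMIs, AWB, an odour-sensing neuron, at 14.9 CPM, and AVD, whose 111 CPM of cho-1 came from 7 UMIs. At the top, cho-1 was at 878 CPM in DA1, 814 in RMD_LR, 791 in RMD_DV, 575 in RIF and 565 in SMD, where the intervals of DA1 (536 to 1356) and RMD_LR (715 to 924) overlapped.

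RIB, an interneuron, showed the reverse pattern, with 433 CPM of cho-1 on 18 UMIs in 45 cells beside 1 UMI of unc-17 and none of cha-1. In the 1 library with enough RIB cells, the pooled sort that used ceh-10, mec-3, nlp-13 and unc-47 reporters, cho-1 was at 370 CPM on 11 UMIs.

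AVJ, an interneuron with no listed transmitter, had the enzyme without the transporter. Its cha-1 level was 275 CPM among command interneurons, 137 CPM in pan-neuronal replicate 1 and 265 CPM in replicate 2, from 328, 5 and 19 UMIs. A cha-1 UMI was found in 13.1% of AVJ cells and an unc-17 UMI in 0.527%, at a median of 495 UMIs a cell; thinned to 500 UMIs a cell, which leaves out 1344 of the 2655 cells, the shares were 12.9% and 0.645%. Body wall muscle, where neither gene belongs, gave 0.162% and 0.0901% at a median of 1991 UMIs, or 0.0394% and 0.0272% thinned. AFD, the thermosensory neuron, had 88.9 CPM of cha-1 on 18 UMIs and 9.87 CPM of unc-17 on 2, with cha-1 at 62.7 CPM in the eat-4 library and 120 CPM in that of sensory neurons.

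The split of the nested pair varied between cholinergic types as well. Of all UMIs on unc-17 and cha-1 together, unc-17 had 3.86% in AVJ (exact Clopper-Pearson interval 2.17 to 6.28%), 37.0% in AVB (29.6 to 45.0%), 41.2% in RIF (35.6 to 46.9%), 71.7% in VA (69.8 to 73.6%), 75.4% in AVA (67.4 to 82.2%) and 87.5% in DB (77.6 to 94.1%). Within the command interneuron library alone the share was 66.7% in AVA (55.5 to 76.6%), 57.6% in AVE, 39.5% in AVB (28.8 to 51.0%), 38.8% in PVC and 28.1% in AVD. In that shared library the intervals of AVA and AVB did not overlap, while that of AVE (46.9 to 67.9%) overlapped both. Those of AVD (13.7 to 46.7%) and PVC (27.1 to 51.5%) lay below that of AVA and overlapped that of AVB. The share also differed between libraries of a type, with intervals that did not overlap, in AIY, RIF, SIA, SIB, URA, VA, VB02 and VD. In RIF it was 13.0% in the eat-4 library (2.78 to 33.6%) and 52.1% in pan-neuronal replicate 2 (44.2 to 59.9%), and in AIY it ran from 61.0% among command interneurons (53.8 to 67.9%) to 83.3% in pan-neuronal replicate 2 (72.7 to 91.1%). This share compares types and says nothing of the level of one gene against the other.

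The 10 genes whose levels over the 125 types ranked most like those of unc-17, beyond the 5 and among 8015 genes with at least 500 UMIs in neurons, were led by F09C3.2 (Spearman rho 0.76) and acc-4 (0.67), a subunit of acetylcholine-gated chloride channels. They went on with ltah-1.2 (0.61), lgc-46 (0.60), a ligand-gated ion channel gene, ZK370.4 (0.59), Y53F4B.51 (0.59), mfsd-6 (0.58), jph-1 (0.58), the junctophilin gene, K11H3.3 (0.57) and nlp-9 (0.54), a neuropeptide precursor. ace-2 ranked 1249 with a rho of 0.19.

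Within libraries, neurons listed as cholinergic were set against those listed with another transmitter, in the 15 libraries where each side had 50 cells or more. Cholinergic neurons had 100.3 to 476 CPM of unc-17 with a median of 287, against 0.947 to 20.1 CPM with a median of 4.67 in the others. For cho-1 the ranges were 55.9 to 725 CPM, median 217, against 1.32 to 16.3, median 4.91, and for cha-1 32.0 to 358 CPM, median 149, against 0 to 7.62, median 4.49. The sides did not overlap for these 3 genes, with the P-lineage library of 15.5 to 18.5 h lowest for unc-17 and pan-neuronal replicate 2 highest. The share of all genes whose sides did not overlap is not given here.

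Summed UMIs were tested across all genes by edgeR's quasi-likelihood method, library being a block and p-values adjusted after Benjamini and Hochberg. Nothing in the labels says that libraries of a group came from separate cultures, so p-values measure only how the difference between sides varied over these libraries. Of the 7570 genes tested 4.4% were higher and 7.54% lower in cholinergic neurons at an adjusted p under 0.05. The log2 fold change was 5.27 ± 0.31 (SE) for unc-17 (adjusted p by edgeR 1.53e-08), 5.15 ± 0.28 for cho-1 (8.83e-09) and 5.07 ± 0.33 for cha-1 (4.55e-08). Of the 5 genes 4 passed the filter on low counts, and unc-17, cho-1 and cha-1 passed it through the cholinergic side, where they are high. The sides were drawn from adult maps that used unc-17 and cho-1, so these calls describe the labels.

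Neither esterase was higher in cholinergic neurons. ace-2 had 0 to 55.7 CPM in cholinergic neurons, median 5.44, and 2.84 to 111 CPM in the others, median 9.33; the sides overlapped, and cholinergic neurons were lower in 12 of 15 libraries. Its log2 fold change of −1.19 ± 0.58 missed the threshold in edgeR (adjusted p 0.199) and passed it in DESeq2 (−1.35, adjusted p 0.0259). ace-1 was among the genes too low to test, at 0 to 0.748 CPM in cholinergic neurons and 0 to 3.12 CPM in the others. It was lower in cholinergic neurons in 12 of 15 libraries and higher in none, and the fit without a filter on low counts gave a log2 fold change of −2.76 ± 0.54 (adjusted p by edgeR 0.00213).

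Of the 23 genes on the list of choline transporters and kinases, receptors and their partners, 22 were in the table (unc-74 was not analysed here), 11 were tested, 1 was higher and 2 were lower, with a median log2 fold change of −0.18 against −0.01 over all genes tested. The choline kinase gene cka-2 was higher by 1.01, and the muscarinic receptor gene gar-3 and the choline transporter-like gene chtl-1 were lower by edgeR, with log2 fold changes of −1.95 and −1.80. Among regulators, unc-3, which encodes a COE-type factor that directs the cholinergic fate of cord motor neurons, was higher by 3.44, and unc-42, a homeobox gene of command interneurons, by 2.58, while unc-30, the regulator of GABA motor neuron identity, had −3.04. Of 10 tested genes of other transmitters 4 were lower and none higher, eat-4, the vesicular glutamate transporter, at −5.97, tdc-1, for tyramine synthesis, at −5.90, and the GABA genes unc-25 and unc-46 at −4.77 and −2.92.

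Most ace-1 UMIs lay in muscle and mesoderm, where 838 of the 966 gave 16.3 CPM, against 1.23 CPM in neurons and 0.0448 CPM in neuronal progenitors. The head mesodermal cell, hmc, stood out at 1017 CPM (interval 629.7 to 1555) on 21 UMIs in 54 cells, of which no single library held 20. The anal sphincter muscle had 74.5 CPM, body wall muscle 22.2, its head part 17.6 and the anal depressor muscle 15.0. The interval of hmc lay above that of the anal sphincter (49.1 to 108), which lay above that of body wall muscle (20.1 to 24.4).

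In body wall muscle, without its head part, the 14 libraries ran from 0 to 66.3 CPM of ace-1. The highest was the P-lineage library of 21 to 24 h replicate 2, on 96 UMIs, and the 3 at 0 were the 2 P-lineage libraries without any ace-1 and the fixed ceh-34 and unc-4 cells. Body wall muscle of these 3 held 168696, 73113 and 109723 UMIs of all genes, so their counts of 0 set only a loose limit. In head muscle of the fixed cells ace-1 was at 38.2 CPM on 63 UMIs. Among neurons only PHA and CEP passed the rule for presence, at 67.9 and 67.8 CPM on 11 and 10 UMIs. PHA is a phasmid sensory neuron and CEP a dopaminergic mechanosensory neuron, and neither is cholinergic. In PHA the 5 libraries held 1 to 6 ace-1 UMIs each, and in CEP the 3 libraries held 1, 2 and 4.

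**Figure D3:**
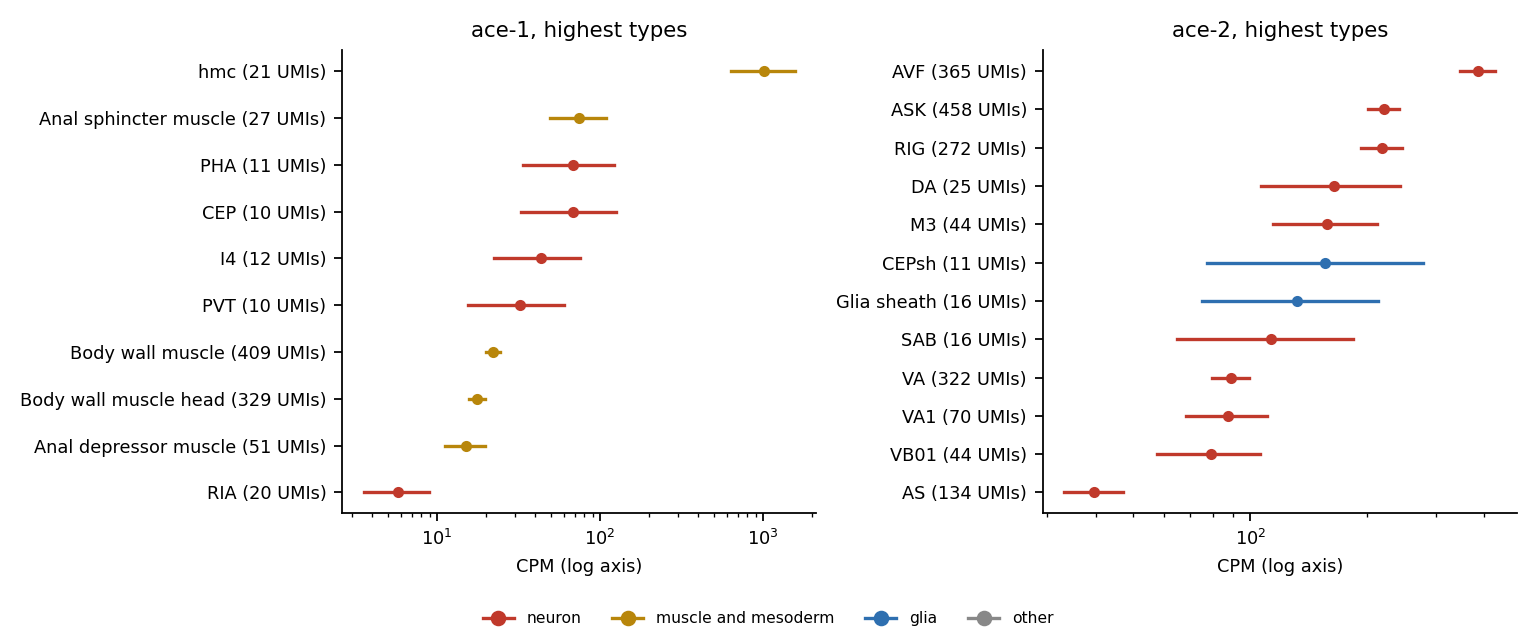
The types with the highest levels of ace-1 (left) and ace-2 (right) among those with at least 10 UMIs, in CPM on a log axis. Points are levels over all libraries, bars are exact Poisson 95% intervals, and colours give the tissue. The hmc cell leads for ace-1 at 1017 CPM and AVF for ace-2 at 385 CPM.

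Neurons were then compared with muscle and mesoderm in the 14 libraries with at least 50 cells of each. The muscle and mesoderm side held 17841 cells, or 11999 without coelomocytes. Across the atlas the 5847 coelomocytes had no UMI of ace-1 or ace-2. ace-1 had 0 to 7.10 CPM in neurons, median 1.36, and 0 to 51.1 CPM in muscle and mesoderm, median 19.6. The sides overlapped only through the 2 libraries where both were at 0, and neurons were lower in the other 12. The edgeR quasi-likelihood log2 fold change was −3.72 ± 0.44 (SE, Benjamini-Hochberg adjusted p 1.35e-06), and without those 2 libraries, a fit added after the values were seen, −3.72 ± 0.44 (adjusted p by edgeR 1.93e-06). ace-1 passed the filter on low counts through muscle and mesoderm, where it is high, and did not pass it in 10 alternative fits. Of the 7210 genes tested 41.1% were higher and 30.8% lower in neurons, so a call is the common outcome here.

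ace-2 was higher in neurons, at 3.19 to 73.8 CPM, median 17.4, against 0 to 14.7 CPM, median 3.45, in muscle and mesoderm. The sides overlapped, and neurons were higher in 12 of 14 libraries, with a log2 fold change of 1.97 ± 0.39 (adjusted p by edgeR 0.00017). For unc-17 neurons had 20.2 to 260 CPM and muscle 0 to 4.12, for cho-1 28.6 to 125 and 0 to 6.71, and for cha-1 16.7 to 139 and 0 to 10.1, with no overlap. No share of all genes without overlap is given for this comparison. The log2 fold changes of unc-17, cho-1 and cha-1 were 7.19 ± 0.36, 6.20 ± 0.45 and 6.40 ± 0.41 (adjusted p by edgeR 1.93e-11, 8.37e-10 and 1.86e-10). These genes passed the filter on low counts through the neurons.

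In the same comparison 3 of 13 tested pathway genes were higher in neurons and 4 were lower, with a median log2 fold change of −0.35 against 0.24 over all genes. The muscarinic receptor gene gar-2 was higher by 6.51, ace-3 by 5.02 and ric-3, which encodes a chaperone of acetylcholine receptors, by 1.67. Lower were lev-9 and oig-4, which encode secreted factors that cluster receptors at the neuromuscular junction, with log2 fold changes of −6.37 and −2.73, and the choline kinase genes cka-1 and ckb-2. The largest called changes on the transmitter and regulator lists were unc-25 (8.29), unc-86 (7.25), unc-47 (7.05) and unc-30 (6.66), all higher in neurons. Of 7 muscle markers 6 were lower in neurons. The other, unc-54, was higher by 2.32, so it did not mark muscle in these libraries, and the cause was not tested.

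**Figure D4:**
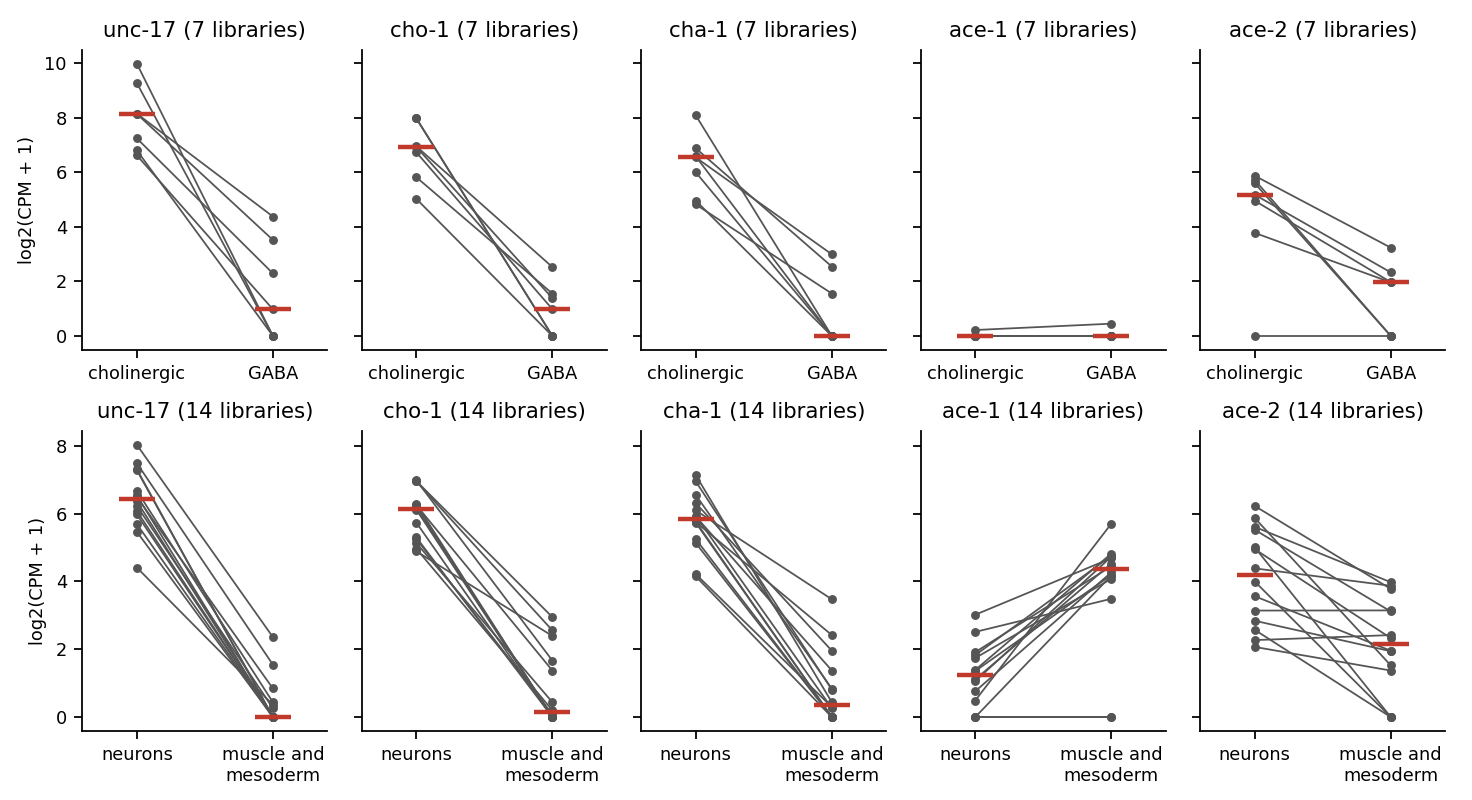
Levels in log2(CPM + 1) of each gene on the 2 sides of a comparison, with a line for each library and a red bar at the median. The upper row sets cholinergic against GABA motor neurons of the ventral cord in 7 libraries, and the lower row sets neurons against muscle and mesoderm in 14 libraries. In the lower row the lines of ace-1 rise towards muscle in 12 libraries and stay at 0 in 2, those of ace-2 fall in 12 of 14, and those of unc-17, cho-1 and cha-1 fall in all 14.

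ace-2 was concentrated in few neuron types, and these were only in part cholinergic. AVF, an interneuron without a listed transmitter, was highest at 385 CPM (interval 346 to 427), with 279, 309 and 467 CPM in P-lineage cells of 15.5 to 18.5 h and 21 to 24 h and 360.3 CPM in the unc-4, ceh-2 and acr-2 sort. ASK, a pheromone-sensing neuron, had 220.3 CPM, and its 9 libraries ran from 153 through 218 to 499 CPM, the methanol-fixed cells highest. RIG, an interneuron listed as glutamatergic, had 218 CPM, with 5 libraries between 192 and 364 CPM. The intervals of ASK (201 to 241) and RIG (193 to 246) overlapped, and that of AVF lay above both.

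The cholinergic types with ace-2 were DA at 164 CPM, SAB at 113, VA at 89.0, VA1 at 87.5 and VB01 at 79.0 CPM. In VB01, 36 of the 44 UMIs came from P-lineage cells of 21 to 24 h replicate 2, at 119.8 CPM, with 39.2 CPM on 8 UMIs in replicate 1 and 0 at 15.5 to 18.5 h, so without replicate 2 it did not meet the rule. Thus 5 of the 45 types with unc-17 (11.1%) had ace-2, and these made up 55.6% of the 9 types with it. VB, with the third highest unc-17 level, had 5.18 CPM of ace-2 on 7 UMIs. In the 2 P-lineage libraries of 21 to 24 h ace-2 was at 75.6 and 92.0 CPM in VA but at 0 and 11.7 CPM in VB. In replicate 2 the intervals of ace-2 in VA and VB (78.9 to 107 against 3.18 to 29.8 CPM) did not overlap. This VB leaves out VB01 and VB02, which are annotated apart and differed. There VB02, at 37.7 CPM (24.1 to 56.1), also lay below VA, while the interval of VB01 (83.9 to 166) overlapped that of VA. Outside neurons, ace-2 was at 155 CPM in the CEP sheath glia on 11 UMIs and at 131 CPM in cells annotated as sheath glia on 16.

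Over the 125 types the level of ace-2 had a Pearson r of 0.21 and a Spearman rho of 0.19 with that of unc-17, and ace-1 had −0.19 and −0.16. Among the related esterases ace-3 had 9871 UMIs and was present in 42 types, led by CAN at 1466 CPM, ALA at 889.7 CPM and RIR at 865 CPM, of which CAN and ALA have no listed transmitter. ace-4 had 343 UMIs and was present in AIM and RIM.

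In the ventral cord, cholinergic motor neurons were compared with GABA motor neurons in the 7 libraries where each side had 20 cells or more. The cholinergic side had 97.1 to 1004 CPM of unc-17, median 280.1, against 0 to 19.8 CPM, median 0.967. For cho-1 the ranges were 31.5 to 251 CPM, median 121, and 0 to 4.75, median 0.974, and for cha-1 27.2 to 269 CPM, median 92.0, and 0 to 6.95, median 0. No side overlapped the other for these genes, and 21 to 24 h replicate 2 of the P lineage held the highest GABA-side values of all 3. How many of all genes had sides without overlap is not given here. Pan-neuronal replicate 2 was highest for unc-17 on the cholinergic side, with 1004 CPM.

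Of the 5440 genes tested 15.7% were higher and 10.3% lower on the cholinergic side. The log2 fold change by edgeR's quasi-likelihood test was 4.68 ± 0.37 for unc-17 (Benjamini-Hochberg adjusted p 3.50e-07), 5.17 ± 0.29 for cho-1 (2.22e-08) and 4.10 ± 0.29 for cha-1 (1.30e-07). These 3 genes passed the filter on low counts through the cholinergic side, where they are high, and ace-1 and ace-2 did not pass it. ace-2 was at 0 to 57.4 CPM, median 35.1, against 0 to 8.41 CPM, median 2.90, and was higher on the cholinergic side in 6 of 7 libraries, with both sides at 0 in the other. The fit without that filter gave 2.70 ± 0.31 for ace-2 (adjusted p by edgeR 6.81e-17). That fit tested and called more genes than the one with the filter, so this p-value cannot be ranked against those of the other 3 genes. ace-1 was at or near 0 on both sides.

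Around these genes the cord classes differed for other transmitters and regulators. unc-25 and unc-47, the GABA synthesis and vesicle loading genes, had log2 fold changes of −8.63 and −6.87, unc-46, a partner in vesicle loading, −7.22, and unc-30 −6.47. The regulators bnc-1, of VA and VB motor neurons, and unc-4, of A-class motor neurons, were higher by 6.28 and 5.95, and unc-3 by 3.304. Of 8 pathway genes tested 3 were higher, cka-2 by 3.64, ace-3 by 3.63 and gar-2 by 1.49, and 3 were lower, led by molo-1, an auxiliary gene of the levamisole receptor, at −5.98.

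The last question was when these genes appear in the P lineage. In the known lineage Pn.aaa gives VA and VB, Pn.ap gives AS and VD, and VC arises from Pn.aa beside Pn.aaa. In VA unc-17 was at 121 CPM at 15.5 to 18.5 h on 14 UMIs, and at 453 and 395 CPM in the libraries of 21 to 24 h. In VA1, the only cholinergic type with at least 20 cells at 11 to 14 h, it went from 14.6 CPM on 1 UMI through 228 CPM to 664 and 824 CPM. In AS it went from 19.0 CPM on 6 UMIs to 172 and 159.9 CPM. These 3 types were lower at 15.5 to 18.5 h than in both later libraries with no overlap of their counting intervals.

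VB stood at 638 CPM already at 15.5 to 18.5 h, on 9 UMIs in 23 cells, and its interval (292 to 1211) held both later values. VB02 was at 166 CPM at 15.5 to 18.5 h and at 475 and 473 CPM at 21 to 24 h, and VB01 was at 0 among 61 cells, then at 245 and 153 CPM. Age has 1, 1 and 2 libraries, so no test of age was made, and a library and its age cannot be told apart at the 2 younger ages. In the unc-4, ceh-2 and acr-2 sort, at 13 to 17 h, VA1 and VA were above both P-lineage libraries of 21 to 24 h, at 1207 and 649 CPM. VB, at 748 CPM, lay between those libraries, and VB02, on 461 UMIs in 891 cells, lay below both. The 23 AS cells of that sort held no unc-17 UMI among 19050 UMIs of all genes. That depth is too low to tell their level from that of AS at 21 to 24 h.

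cho-1 and cha-1 followed the same order. In VA cho-1 was at 60.5 CPM at 15.5 to 18.5 h and at 245 and 197 CPM later, and cha-1 at 69.2 and then 200.3 and 129 CPM. In VA1 cho-1 went from 0 through 173 to 686 and 741 CPM, and cha-1 from 0 through 59.0 to 264 and 216.5 CPM. AS was lowest of these types for both at 21 to 24 h, at 38.8 and 32.1 CPM of cho-1 and 71.9 and 57.8 CPM of cha-1. VC stayed at 0 to 3.64 CPM for all 3 genes in the 3 P-lineage libraries with at least 20 VC cells, which held 416, 857 and 830.

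unc-3 was high in progenitor cells in which these genes were low. In Pn.aaa, the progenitor of VA and VB, unc-3 was at 3062 CPM at 15.5 to 18.5 h and at 2199 and 2179 CPM at 21 to 24 h, beside 2612, 1882 and 2105 CPM in VA and 1843, 1663 and 1673 CPM in VB. In the same Pn.aaa cells unc-17 was at 0, 0 and 15.0 CPM, cho-1 at 0, 6.73 and 10.0 CPM, and cha-1 at 0, 1.68 and 2.23 CPM. In Pn.ap, the progenitor of AS and VD, unc-3 was lower, at 90.3, 146 and 187 CPM, beside 3070, 2927 and 2707 CPM in AS, and unc-17 was at 0.405, 4.19 and 5.82 CPM. In VC unc-3 was at 49.0, 26.4 and 56.6 CPM.

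**Figure D5:**
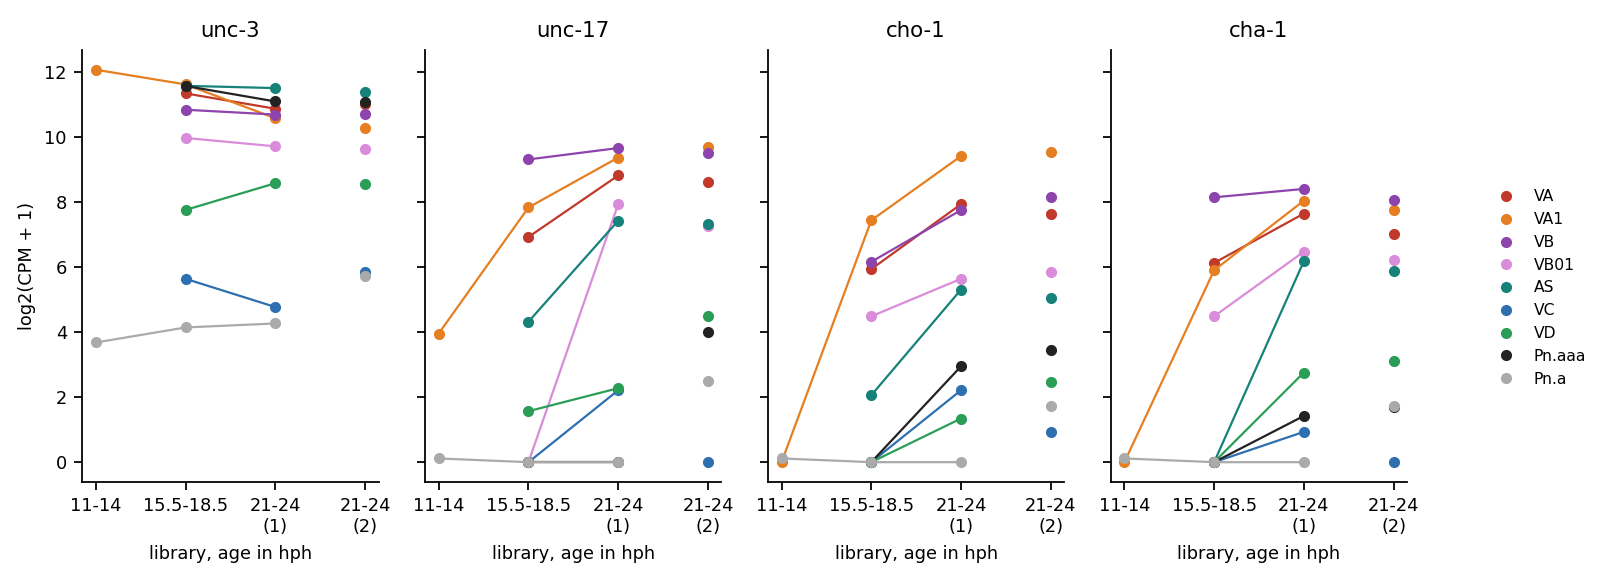
Levels of unc-3, unc-17, cho-1 and cha-1 in log2(CPM + 1) by P-lineage library, for 7 neuron types and the progenitor types Pn.a and Pn.aaa. Points are type and library pairs with at least 20 cells, and lines join the first library of each age, given in h on the labels' scale of hph. Pn.aaa (black) sits among the neuron types AS, VA and VB for unc-3 and near the bottom for the 3 acetylcholine genes, while VA and VA1 are higher in the later libraries.

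In the test of Pn.aaa against Pn.a, over 3 libraries with at least 20 cells of each, 19.6% of the 6139 genes tested were higher and 18% lower. unc-3 was higher by 6.55 ± 0.35 (log2 fold change, edgeR's quasi-likelihood test, Benjamini-Hochberg adjusted p 3.78e-06), and ric-3 by 3.88 ± 0.28 (9.14e-06). vab-7, a homeobox gene of DB motor neurons, was higher by 6.36. None of the 5 genes passed the filter on low counts. Of the neuron markers 5 of 6 tested were higher, and of the markers of dividing cells 5 of 6 were lower.

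The new cholinergic neurons AS, VA, VB and VC, with their numbered subtypes, were compared with all neuronal progenitors in the 4 P-lineage libraries. From 11 to 14 h through 15.5 to 18.5 h to the 2 libraries of 21 to 24 h, unc-17 was at 14.6, 92.6, 279 and 281 CPM in neurons and at 0.132, 0.153, 3.56 and 8.57 CPM in progenitors. cho-1 was at 0, 55.4, 119.9 and 121.6 CPM against 0.0883, 0.153, 1.30 and 4.44 CPM. cha-1 was at 0, 27.2, 116 and 92.0 CPM against 0.110, 0.153, 0.648 and 1.27 CPM, and ace-2 at 0, 12.7, 35.2 and 57.2 CPM against 0.177, 0.763, 3.24 and 3.91 CPM. Neurons were above progenitors in all 4 libraries for unc-17, and in 3 of 4 for the others, which had no UMI in the 40 neurons of 11 to 14 h. In those 40 neurons unc-17 had 1 UMI, so the counts do not tell the genes apart at that age.

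Of the 7971 genes tested 24.6% were higher and 23% lower in the new neurons. By edgeR, with Benjamini-Hochberg adjustment, unc-17 was higher by 6.10 ± 0.46 on the log2 scale (adjusted p 0.000105), cho-1 by 5.77 ± 0.44 (0.000107) and ace-2 by 3.94 ± 0.26 (6.66e-05). cha-1 and ace-1 did not pass the filter on low counts; without it cha-1 had 6.45 ± 0.35 (adjusted p by edgeR 3.13e-06). The genes that passed did so through the neurons, where they are high. Of 9 pathway genes tested 4 were higher and none lower, gar-2 by 5.63, ace-3 by 5.42, gar-3 by 5.18 and ric-3 by 1.53, with a median of 1.11 against −0.02 over all genes. The regulators bnc-1, unc-4 and unc-3 were higher by 7.29, 6.67 and 2.68, and unc-42 had −5.10. All 8 neuron markers were higher and all 6 markers of dividing cells lower.

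VD, the GABA class born in the same lineage, was compared with progenitors in the same way. unc-17 was at 0.967, 10.5 and 19.8 CPM in VD and its numbered subtypes in the 3 libraries from 15.5 h on, and at 0.153, 3.56 and 8.57 CPM in progenitors. VD was above progenitors within each library, but the ranges overlapped, and the highest value of both sides came from 21 to 24 h replicate 2. In that library other types outside the cholinergic classes were also above replicate 1, with Pn.aaa at 15.0 against 0 CPM and glial progenitors at 8.22 against 0 CPM, and the part of this in the VD values was not tested.

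The log2 fold change of unc-17 in VD was 1.79 ± 0.31 by edgeR's quasi-likelihood test (adjusted p 0.00375), where 32.2% of the 8154 genes tested were higher and 31.3% lower, so a call is common here. Without the library block the adjusted p was 0.175. ace-2, at 2.90, 4.02 and 8.42 CPM against 0.763, 3.24 and 3.91, was higher by 1.35 ± 0.42 (adjusted p 0.0334), a call that DESeq2, the fit without a filter, the fit without the block and the fits without 15.5 to 18.5 h or without 21 to 24 h replicate 2 did not make. cha-1, which did not pass the filter, was at 1.93, 4.82 and 6.96 CPM against 0.153, 0.648 and 1.27 CPM, and the fit without a filter gave 2.85 ± 0.64 (adjusted p by edgeR 0.000727). Of 11 pathway genes tested 6 were higher and none lower, led by molo-1 at 7.02, gar-3 at 6.21 and lev-10, a receptor clustering gene, at 5.63. A few cells held much of the signal: of 88 unc-17 UMIs in 3795 VD cells, 4 cells with at least 5 UMIs held 28.4%, and of 48 in 378 VD12 cells, 3 cells held 56.3%.

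Shares of cells showed the same order as the levels. An unc-17 UMI was found in 46.98% of VB cells at a median of 862 UMIs, in 36.6% of VA cells at 1224, in 10.3% of AS cells at 1105 and in 0.181% of VC cells at 903. The share was 1.24% in VD at 1381 UMIs, 0.922% in Pn.aaa at 1964.5, and 0.0901% in body wall muscle at 1991. Thinned to 500 UMIs a cell, the shares were 30.0% in VB, 20.3% in VA, 5.35% in AS, 0.125% in VC, 0.285% in VD, 0.243% in Pn.aaa and 0.0272% in muscle. Thinning left out 80 of 1290 VB, 184 of 2283 VA, 289 of 2271 AS, 479 of 2207 VC, 575 of 3795 VD, 31 of 1410 Pn.aaa and 1727 of 5552 muscle cells.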

How the data were processed

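The deposited table gives UMI counts per gene and cell, with the authors' annotation of each cell, and Cell Ranger 6.0.0 is named in the submitters' processing notes. The sources used here name no genome build or annotation. Raw counts were summed per library and annotated type. Depth was 1798814 to 50689801 UMIs a library, so types of few cells rest on few UMIs, and intervals cover counting error only. Doublets were not called here.

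Comparisons used edgeR 4.0.16 (TMM, filterByExpr, quasi-likelihood test, two-sided) in R 4.3.3, with library as a block because both sides came from the same library, and Benjamini-Hochberg adjustment over all genes tested at 0.05. The test was checked on simulated data. Alternatives were DESeq2 1.42.0, DESeq2 size factors, no filter, robust spread, no block, cells of at least 500 UMIs, more cells a side and each library left out. Python 3.11.15 with pandas 2.3.3 and scipy 1.17.1 did the rest.

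The 5 genes and the gene lists were chosen with earlier results of these data known. Named were the 5 genes, at most 8 listed genes a comparison with the largest called change, the 10 genes ranking most like unc-17, the types with the 8 highest unc-17 levels, and types above or below 50 CPM against their listed transmitter. Other pathway genes and types given by name were chosen after their values were seen. unc-74 was not analysed here.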

Additional observations from a re-analysis of the deposited data

Results flagged for a closer look

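Cells that the annotation marks with a question mark as I1 were in no comparison of types. In these 274 cells unc-17 was at 42.8 CPM on 13 UMIs, against 239 CPM in I1. Any count over 3 exceeds the 9.88 CPM given for a count of 0, so this shows detection only.

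Cells annotated as of unknown tissue, 94 in all, had ace-2 at 9.53 CPM on 7 UMIs, above the 4.08 CPM that a count of 0 allows.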

How the results depend on the processing

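For the 5 genes, 284 of 291 alternative values over 17 results kept their direction and side of the threshold, 6 lost the call, 1 gained it and none reversed. The losses were in VD against progenitors: ace-2 under DESeq2, without a filter, without the block, without 15.5 to 18.5 h and without 21 to 24 h replicate 2, and unc-17 without the block (adjusted p by edgeR 0.175). ace-2 in cholinergic against other neurons was called by DESeq2 alone. The cause was not tested. Library pairs the sides by design; without the library block the genes called fell to 414 in cholinergic against other neurons (904 with it) and to 569 in the cord (1412 with it). Without a filter on low counts, which tests more genes, 2015 genes were called in cholinergic against other neurons, 10398 in neurons against muscle (5187 with it) and 2627 in the cord. DESeq2 called 1756 in cholinergic against other neurons. Adjusted p-values of fits with and without the filter rest on different sets of genes and cannot be ranked against each other.

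Leaving out a library gave 724 to 938 genes in cholinergic against other neurons, 4640 to 5143 in neurons against muscle, 551 to 1683 in the cord, 2070 to 4656 in new cholinergic neurons (3794 with all), 4128 to 5177 in VD and 1645 to 2183 in Pn.aaa. In the cord 801 were called without 15.5 to 18.5 h, 589 without 21 to 24 h replicate 1 and 551 without replicate 2; in new neurons 2070 without 21 to 24 h replicate 2. ace-1 was present in 0 neuron types at 100 CPM, in 4 at 25 CPM and in 0 among cells of at least 500 UMIs. A minimum of 100 cells a side changed no library of the cholinergic comparison and was not run there. In neurons against muscle ace-1 was called in all 13 alternatives that tested it and did not pass the filter in 10 others. Low UMI counts limit ace-1 and the rarer types.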

Other observations

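The level of unc-4, chosen after the values of ace-2 were seen, was at least 1000 CPM in 7 neuron types, and 5 of these were among the 9 types with ace-2, namely VA1, VA, AVF, SAB and DA. The exceptions were DA1 and the pharyngeal neuron I5, both with no ace-2 UMI, which allows up to 132 and 3.06 CPM. The other 4 types with ace-2 lay under that level of unc-4. Types share libraries and depth, and the values are a description with no test.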
